A study of Mus musculus with 7 samples.

Results

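Mitochondrial chaperones fold proteins inside the organelle, and mitochondrial proteases cut imported precursors, remove misfolded proteins and trim regulators of membrane shape. The mitochondrial unfolded protein response is the programme by which cells raise these genes when proteins misfold in the matrix. Brown fat is packed with mitochondria that turn fuel into heat, and PGAM5 is a phosphatase held in the mitochondrial membrane. The 10 genes described here were picked by name from that programme and found in the count table by Ensembl identifier. They are 10 of 53715 gene identifiers, and all 10 passed the filter on low counts, which left 15123 genes. Hspd1, Hspe1, Hspa9 and Trap1 encode chaperones, and the others encode proteases or a protease partner (Clpp, Clpx, Lonp1, Afg3l2, Yme1l1 and Htra2).

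Interscapular brown fat was taken from male C57BL/6J mice of 10 weeks, either wild-type (WT, 3 libraries) or PGAM5 KO (KO, 3 libraries with a count column), with 1 animal behind each library according to the labels. A KO sample numbered 4 in the labels was not analysed here. The labels do not say how the deletion was made, whether it is present in every tissue, or whether the WT mice were littermates. The comparison asks how the loss of PGAM5 bears on the transcripts of mitochondrial protein folding and turnover.

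Sequencing depth ran from 18034204 to 33617762 counts per library. The counts of Pgam5 itself checked the labels, at 167, 122 and 186 for WT 1 to WT 3 against 1, 3 and 11 for KO 1 to KO 3. On the first principal component (45.6% of the variance) WT 2 and KO 3 lay farthest from the others, and genes of the mitochondrial genome took 43.0% of the counts in WT 2 and 19.7% in KO 3, against 28.2% to 34.1% elsewhere. The label of brown fat was matched by its markers: all 12 were tested, and their summed level was 14550 to 18120 CPM (counts scaled to library size) in WT and 16710 to 19210 CPM in KO. Fabp4 gave the largest part (means of 8660 CPM in WT and 7400 CPM in KO), followed by Ucp1 (2300 and 4780 CPM). The sum is therefore weighted to few genes and does not measure a share of cells. Summed markers of other cells were far lower. Skeletal muscle markers (9 of 12 tested) reached 9.09 to 46.6 CPM in WT and 3.05 to 40.2 CPM in KO, macrophage and leukocyte markers (8 of 8) 72.5 to 112 and 53.7 to 99.1 CPM, endothelial markers (6 of 6) 279 to 474 and 347 to 729 CPM, and white adipocyte markers (4 of 5, Hoxc9 at 0 in all 6 libraries) 58.9 to 147 and 34.8 to 71.0 CPM. In whole tissue, fewer cells of a type and less RNA per cell cannot be told apart.

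Hspd1 and Hspe1 are shown first because their promoter windows overlap. They sit head to head on chromosome 1 and encode the 2 parts of the same folding machine. Hspd1 spans chr1:55077835-55088243 on the minus strand and Hspe1 chr1:55088132-55091307 on the plus strand (GENCODE M 21, mm10). Among the promoter windows of RefSeq (GRCm38.p6, 250 bases before to 50 after a start), 285 bases of the Hspe1 window are shared with 1 of the 2 Hspd1 windows. That Hspd1 window belongs to a start inside the gene (55087932). The Hspd1 window of the start at 55088243, the end of the gene span, shares 4 bases with the Hspe1 window. The stretch of 285 bases holds a heat shock element, the array of inverted GAA units to which the heat shock factor HSF1 binds. It is shown with its flanks at chr1:55088053-55088082 on the plus strand, with capitals on the 4 units.
Hspe1: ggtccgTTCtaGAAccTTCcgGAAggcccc
The element begins 89 bases before the RefSeq start of Hspe1 and 144 bases before the internal start of Hspd1. It lies downstream of the Hspd1 start at 55088243. Of 2 annotated Hspd1 transcripts that span it, 1 has an exon there and 1 an intron. For comparison, the longest such arrays in the windows of the cytosolic heat shock genes Hsph1 (chr5:149636288-149636300, minus strand) and Chordc1 (chr9:18292263-18292285, plus strand) read as follows.
Hsph1: TTCtgGAAagTTC
Chordc1: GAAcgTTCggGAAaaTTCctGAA
Searched on both strands, an array of 3 units (TTC, GAA and TTC, parted by 2 bases of any kind) occurred in 0.603% of the 32851 windows, and the 4-unit array that adds a further GAA, and so contains the former, in 0.0152% (5 windows). RefSeq windows were found for 7 of the 10 genes (Hspa9, Afg3l2 and Htra2 had none), and of these Hspd1 and Hspe1 alone held either array. For Hspd1 it was the window of the internal start. The windows of 14 of 18 cytosolic heat shock genes were found, and 2 held the 3-unit array, Hsph1 and Chordc1. A match describes letters only, and says nothing of binding.

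Promoters of the other members carried different letters. Trap1 is shown because its window was the only one of the 7 with a cAMP response element (TGACGTCA, 1.79% of all windows), and it also holds the nuclear receptor element AAGGTCA (4.72% of windows, also in the Hspd1 and Hspe1 windows). Lonp1 is shown because it varied most between libraries among the proteases. Both are minus-strand stretches that end before the first annotated exon, chr16:4077828-4078060 for Trap1 and chr17:56626888-56627153 for Lonp1 (GRCm38.p6), with capitals on those 2 motifs.
Trap1: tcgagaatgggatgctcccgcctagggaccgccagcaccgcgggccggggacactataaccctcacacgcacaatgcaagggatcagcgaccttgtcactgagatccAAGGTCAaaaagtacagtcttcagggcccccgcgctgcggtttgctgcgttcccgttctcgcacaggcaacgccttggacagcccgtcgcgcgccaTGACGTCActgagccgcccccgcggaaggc
Lonp1: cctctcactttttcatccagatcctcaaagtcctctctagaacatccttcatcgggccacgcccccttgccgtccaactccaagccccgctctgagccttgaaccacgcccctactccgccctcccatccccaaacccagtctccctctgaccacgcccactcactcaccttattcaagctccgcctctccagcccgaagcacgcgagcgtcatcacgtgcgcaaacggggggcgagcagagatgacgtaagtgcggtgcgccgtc
The Lonp1 stretch has neither motif. The C/EBP-ATF response element (TGATGNAA, 3.97% of windows), to which ATF4 binds, was in 0 of the 7 members' windows. ETS motifs (CCGGAAG, 8.86% of windows) were in those of Hspd1, Hspe1, Clpp and Yme1l1. In the Hspe1 window and the Hspd1 window of the internal start they overlap the heat shock element.

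None of the 10 genes differed between KO and WT past the threshold (Benjamini-Hochberg adjusted p of 0.05 over all genes, edgeR quasi-likelihood test). The share of all tested genes past it was 0.0595% (0.0198% higher and 0.0397% lower in KO), and a count of 0 among 10 is near that share. An unadjusted p below 0.05 was reached by 0 of 10, where 11.8% of tested genes reached it, and in 0 of 10 did the libraries of the 2 genotypes separate without overlap, against 19.5% of all genes. DESeq2 and limma-voom likewise passed 0. Of the log2 fold changes (KO minus WT), 5 were positive and 5 negative, from -0.31 for Hspe1 to 0.21 for Lonp1, with a median of 0.00 beside -0.002 over all genes. The 95% intervals ran from -0.82 at the lowest (Hspe1) to 0.74 at the highest (Lonp1). As folds, the lowest bound was 0.566 (Hspe1) and the highest 1.67 (Lonp1), and changes within each gene's own bounds could not be told from none at this depth and number of mice.

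**Figure D1:**
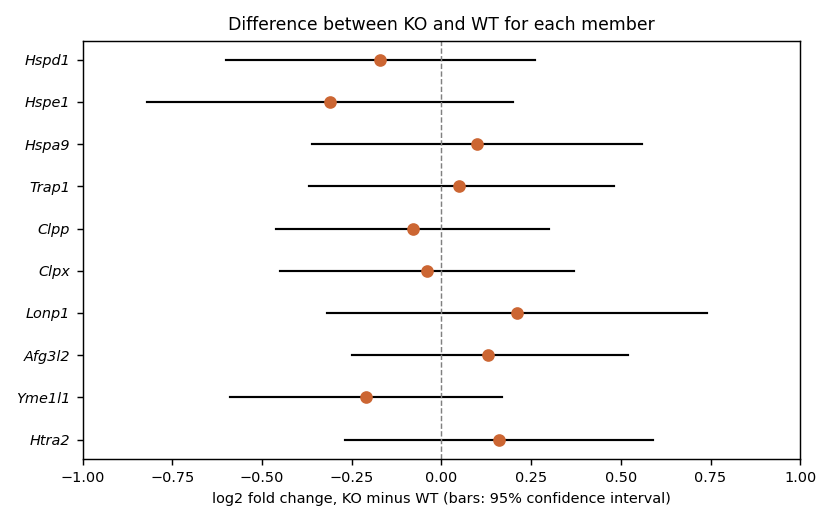
Log2 fold change of KO against WT for each of the 10 genes on the horizontal axis, with a point for the estimate and a bar for the 95% confidence interval (3 WT and 3 KO libraries). Every interval spans 0; the widest reach belongs to Hspe1 (-0.82 to 0.20) and Lonp1 (-0.32 to 0.74).

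Levels of the 10 genes spanned 55.6-fold once scaled to exon length. Per kilobase of exons, Hspa9 (214 ± 30.1 CPM per kilobase, SD, n = 6 libraries), Hspd1 (213 ± 28.5) and Hspe1 (204 ± 42.9) stood at the top, and their ranges overlapped. Trap1 (88.7 ± 11.4) and Clpp (69.4 ± 7.67) came next, below the lowest Hspe1 library, and overlapped each other. Clpx (38.0 ± 4.87) and Lonp1 (31.9 ± 8.0) formed the following pair, also with overlapping ranges. Afg3l2 (20.6 ± 2.07), Yme1l1 (11.8 ± 1.43) and Htra2 (3.85 ± 0.417) each lay apart from the gene above. The matrix chaperones were thus the most abundant transcripts of the group and the intermembrane space protease Htra2 the least. Htra2 shares 753 exonic bases with Aup1 and 535 with Loxl3, both overlapping it; the kit marks strand, but the strand setting of the counting is not given in the sources used here, so its level is uncertain. With the longest transcript as length, 5 of the 10 genes kept their place: Hspe1 (312 CPM per kilobase) moved above Hspa9 (303) and Hspd1 (233), and Afg3l2 (43.7) above Lonp1 (32).

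**Figure D2:**
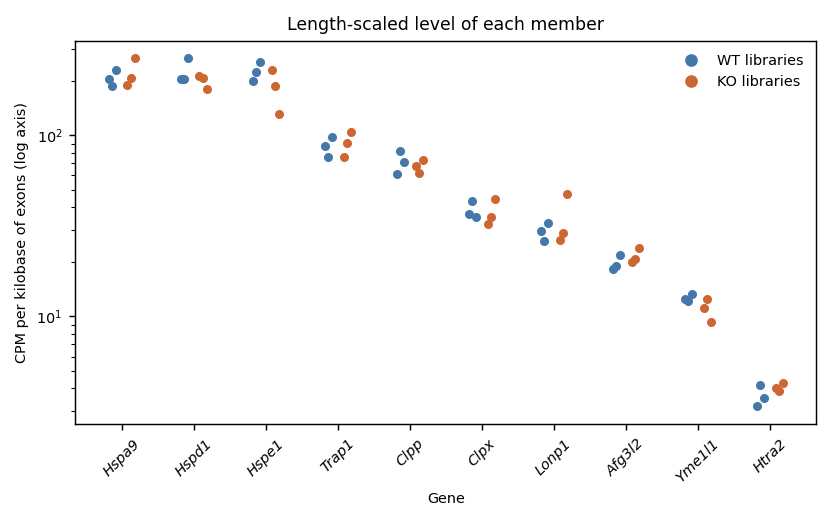
CPM per kilobase of exons (log axis) for each gene, 1 point per library, WT and KO in separate colours. The 3 chaperone genes Hspa9, Hspd1 and Hspe1 lie together at the top, Htra2 at the bottom (3.18 to 4.28), and WT and KO points intermingle for every gene.

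Hspd1 and Hspe1 encode the chaperonin barrel and its lid. Hspd1 stood at 541, 544 and 705 CPM in WT 1 to WT 3 and at 564, 551 and 478 CPM in KO 1 to KO 3. WT 3 was the high library and KO 3 the low one, while the other 4 lay within 541 to 564 CPM, so the groups overlapped. The means were 597 ± 94.0 and 531 ± 46.0 CPM (SD, n = 3 each), a log2 fold change of -0.17 (SE 0.19, adjusted p = 0.715 from edgeR). Without WT 3 it was -0.032. Hspe1 was at 294, 331 and 375 CPM in WT and 337, 275 and 193 CPM in KO. Again WT 3 was highest and KO 3 lowest, and KO 1 lay above WT 1 and WT 2. Its mean was 333 ± 40.5 CPM (SD, n = 3) against 268 ± 72.2 CPM (SD, n = 3), a difference of log2 -0.31 (SE 0.23, adjusted p = 0.568 from edgeR), and the value was -0.12 without KO 3. Hspe1 counts per Hspd1 count came to 0.544, 0.608 and 0.532 for WT 1 to WT 3, and to 0.598, 0.499 and 0.404 for KO 1 to KO 3. The lid transcript was thus scarcest relative to its partner in KO 3. These genes share 112 exonic bases on opposite strands, and the pseudogene Hspd1-ps3 took 2397 counts in all beside 80520 for Hspd1, so their values are uncertain to that extent.

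Hspa9 encodes mortalin, the mitochondrial chaperone of the HSP70 family that pulls precursors into the matrix. It was the member with the most counts, 882, 803 and 986 CPM in WT and 817, 896 and 1150 CPM in KO. KO 3 was highest and WT 2 lowest, with the other libraries of both groups between. The means of 890 ± 92.2 and 955 ± 175 CPM (SD, n = 3 each) gave a log2 fold change of 0.10 (SE 0.21, adjusted p = 0.846 from edgeR). Trap1, the mitochondrial relative of HSP90, followed a similar order at lower level, with 224, 196 and 253 CPM in WT and 196, 233 and 268 CPM in KO. Its log2 fold change was 0.05 (SE 0.19, adjusted p = 0.918 from edgeR). Both estimates turned negative without KO 3, to -0.056 and -0.064, and that of Trap1 also without WT 2 (-0.039).

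**Figure D3:**
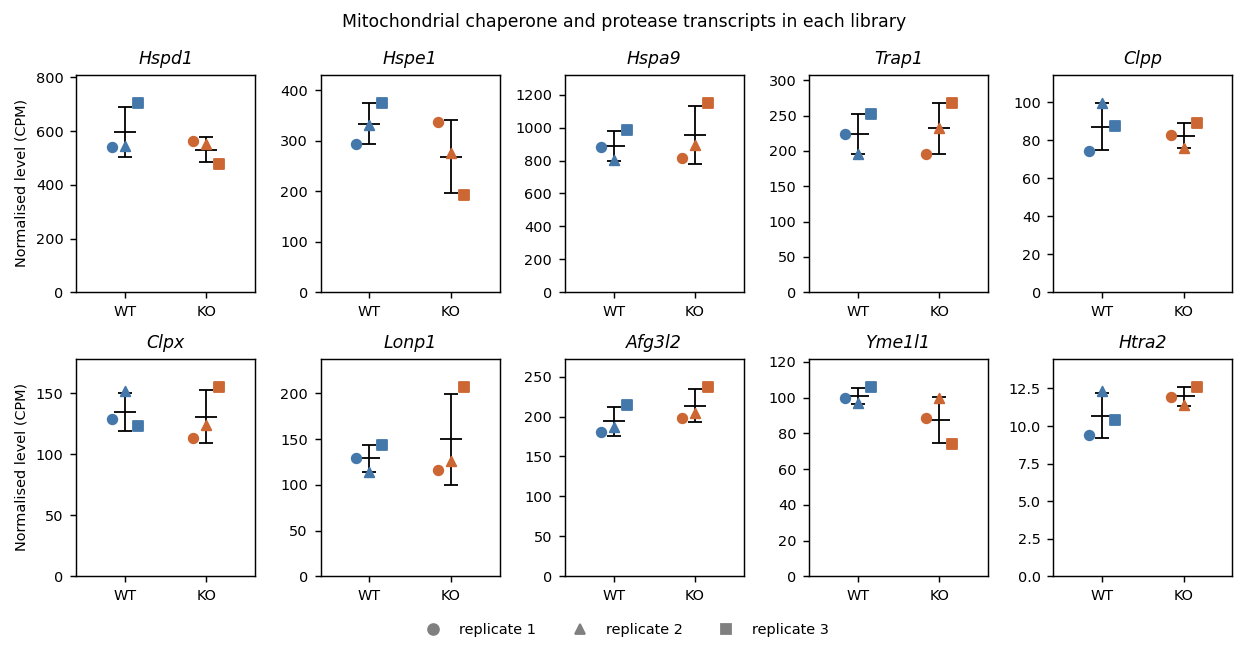
Normalised level (CPM, from 0) of each gene in WT and KO. Symbols are single libraries by replicate number, and the black mark and bar are the mean and SD of 3 libraries. The square at KO is replicate 3, the highest of all 6 libraries for 6 genes and the lowest for Hspd1, Hspe1 and Yme1l1.

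In the matrix, ClpX unfolds proteins and feeds them to the ClpP peptidase, and LONP1 degrades damaged and unassembled proteins. Clpp was at 74.5, 99.7 and 87.6 CPM in WT and 82.7, 75.8 and 89.0 CPM in KO, with all KO libraries inside the WT range. Its log2 fold change was -0.08 (SE 0.17, adjusted p = 0.852 from edgeR). Clpx stood at 129, 152 and 123 CPM in WT and 113, 124 and 155 CPM in KO, log2 -0.04 (SE 0.18, adjusted p = 0.934 from edgeR), with KO libraries at both the bottom and the top of the order. The signs of Clpp and Clpx turned without WT 2 (0.024 and 0.051), and that of Clpx also without KO 1 (0.063). Clpx counts per Clpp count were 1.40 to 1.74 in WT and 1.36 to 1.74 in KO, so the ranges of the genotypes overlapped.

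Lonp1 had 129, 114 and 144 CPM in WT and 116, 126 and 207 CPM in KO. A single library, KO 3, stood above the other 5, which lay between 114 and 144 CPM. The group means were 129 ± 15.1 and 150 ± 50.2 CPM (SD, n = 3 each), log2 0.21 (SE 0.24, adjusted p = 0.715 from edgeR), and without KO 3 the estimate was -0.099. Lonp1 counts per Hspd1 count were 0.205 to 0.239 in the other 5 libraries and 0.433 in KO 3.

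Afg3l2 and Yme1l1 encode inner membrane proteases that face the matrix and the intermembrane space, and YME1L also cuts the fusion protein OPA1. Afg3l2 was at 181, 187 and 215 CPM in WT and 198, 205 and 237 CPM in KO. WT 3 lay above KO 1 and KO 2, so the groups overlapped, at log2 0.13 (SE 0.17, adjusted p = 0.745 from edgeR). Yme1l1 ran the other way, with 100, 97.3 and 106 CPM in WT and 88.9, 100 and 74.1 CPM in KO, log2 -0.21 (SE 0.17, adjusted p = 0.604 from edgeR). Afg3l2 counts per Yme1l1 count came to 1.81, 1.92 and 2.02 for the WT libraries, against 2.23, 2.05 and 3.2 for the KO libraries. This ratio, chosen after the values were seen, did not overlap between the genotypes. The levels of 19.5% of single genes did not overlap either, and the share among ratios of genes was not computed. Htra2, a serine protease of the intermembrane space, had 185 to 355 counts per library, and its 9.37, 12.3 and 10.4 CPM in WT and 11.9, 11.4 and 12.6 CPM in KO gave a log2 fold change of 0.16 (SE 0.19, adjusted p = 0.731 from edgeR).

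KO 3 was the highest of the 6 libraries for 6 members (Hspa9, Trap1, Clpx, Lonp1, Afg3l2 and Htra2) and the lowest for 3 (Hspd1, Hspe1 and Yme1l1). Over all tested genes it was highest for 26.5% and lowest for 26.6%, so it is at an extreme for many genes. Relative to the mean of KO 1 and KO 2, KO 3 held 1.72 times as much Lonp1 and 1.34 times as much Hspa9, but 0.631 times as much Hspe1. In counts of Hspa9 per Hspd1 count, KO 3 had 2.41 and the other 5 libraries 1.40 to 1.63. Chaperones of the same compartment therefore moved apart in this library. KO 3 also had the lowest share of mitochondrial genome counts, the highest endothelial marker sum (729 CPM), the lowest macrophage and leukocyte sum (53.7 CPM) and the lowest white adipocyte sum (34.8 CPM), and their part in these values was not tested.

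Atf5, the transcription factor best known for switching on this response in mammals, showed the same single library. It was at 106, 80.2 and 95.9 CPM in WT and 74.9, 73.1 and 268 CPM in KO, log2 0.56 (SE 0.45, adjusted p = 0.598 from edgeR). Without KO 3 the value was -0.35. KO 3 thus carried the highest Atf5 and the highest Lonp1 together with the lowest Hspe1. Of the 14 listed regulators all were tested and 0 passed (1 had an unadjusted p below 0.05, against 11.8% of all genes). There were 10 positive and 4 negative log2 fold changes, with a median of 0.12. Dele1, which relays mitochondrial stress to the cytosol and was singled out after its values were seen, had 28.9, 23.3 and 29.5 CPM in WT and 37.7, 38.7 and 43.2 CPM in KO. The 3 KO values all exceeded the 3 WT values, which held for 10.1% of all genes, and the difference of 0.55 on the log2 scale (SE 0.16) missed the threshold (adjusted p = 0.340 from edgeR). Sirt7, also picked out afterwards, separated the same way (0.34, SE 0.17, adjusted p = 0.459 from edgeR). Atf4 (-0.64, SE 0.35) and Ddit3 (-0.75, SE 0.36), likewise picked out afterwards, went the other way and had the lowest estimates of the list. Their libraries overlapped between genotypes, and both were highest in WT 2. Ubl5, a ubiquitin-like protein of the worm response, stood at 0.01 (SE 0.16).

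**Figure D4:**
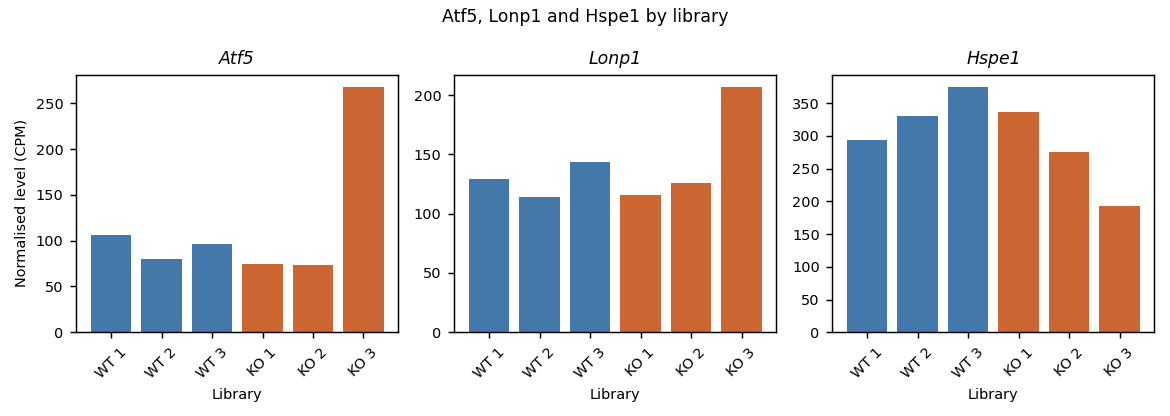
Normalised level (CPM, bars from 0) of Atf5, Lonp1 and Hspe1 in each of the 6 libraries, WT and KO in separate colours, 1 bar per library. KO 3 is the tallest bar for Atf5 (268) and Lonp1 (207) and the shortest for Hspe1 (193).

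The cytosolic heat shock genes, many of which HSF1 also controls, stood high in WT 3. All 18 had negative log2 fold changes, with a median of -1.05, but 0 passed with edgeR. DESeq2 called 3 of the 15 it tested, beside 0.603% of all genes it tested, either direction. With edgeR 14 reached an unadjusted p below 0.05, which 5.49% of tested genes did in that direction. Of the 18, 11 separated without overlap, against 9.39%. WT 3 was the highest library for 17 of these 18. It held 32.7 times the mean of WT 1 and WT 2 for Hspa1b, the highest of the list and chosen after its values were seen. The fold was 8.85 for Hsph1, against 1.30 for Hspd1 and 1.2 for Hspe1. Chordc1, whose window holds an array of 5 units, stood at 2.68 times. The median over the cytosolic list was 2.60 times, over the 10 mitochondrial genes 1.17 times and over all tested genes 0.99 times. Hspd1 and Hspe1 were, with Yme1l1, the members with their highest level in WT 3. By the fold over WT 1 and WT 2, however, Trap1 (1.2), Lonp1 (1.19), Hspa9 (1.17) and Afg3l2 (1.17) stood beside Hspe1. On the log2 CPM scale centred over all 6 libraries Hspd1 and Hspe1 stood highest of the 10 in WT 3 (0.33 and 0.35, next to 0.18 for Yme1l1). That scale also takes in their low KO 3 values (-0.23 and -0.61). Whether the element bears on any of these values was not tested. Hsp90ab1 was at 1180, 1020 and 1650 CPM in WT and 803, 646 and 701 CPM in KO. Hspa8, at 663, 1140 and 1700 CPM in WT and 729, 645 and 247 CPM in KO, was lowest in KO 3, as were Hspd1 and Hspe1. Without WT 3 all 18 stayed negative, with a median of -0.49. In that fit 6 had an unadjusted p under 0.05, as did 903 of all 15646 tested genes in that direction. Cryab, chosen after its values were seen, was highest in WT 2 and stood in WT 3 at 0.33 times the mean of WT 1 and WT 2. Its log2 fold change was -1.85 with all libraries and -2.22 without WT 3 (adjusted p = 0.0514 from edgeR). WT 3 also had the highest skeletal muscle marker sum (46.6 CPM), with KO 2 close behind (40.2 CPM). The summed level of the 18 heat shock genes was 6031 CPM in WT 3 and 1988 CPM in KO 2. The part of muscle in these values was not tested.

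**Figure D5:**
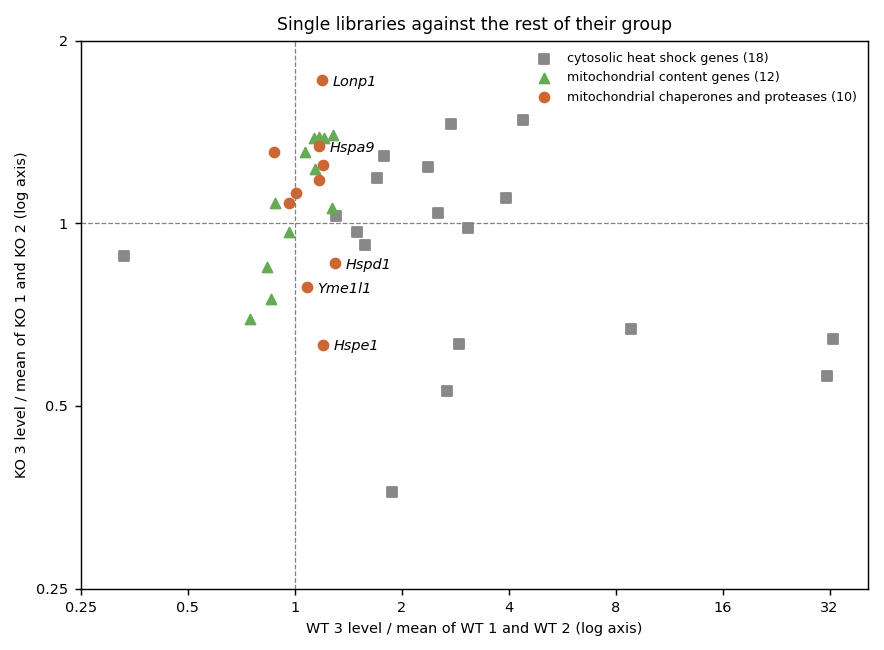
Level in WT 3 over the mean of WT 1 and WT 2 (horizontal, log axis) against level in KO 3 over the mean of KO 1 and KO 2 (vertical, log axis), 1 point per gene for 3 gene lists. The mitochondrial chaperones and proteases stay between 0.873 and 1.30 on the horizontal axis, while the cytosolic heat shock genes reach 32.7; on the vertical axis Lonp1 (1.72) and Hspe1 (0.631) mark the ends of the mitochondrial set.

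Among other mitochondrial chaperones and assembly helpers, 14 of 14 were tested and 0 passed (1 at an unadjusted p below 0.05, against 11.8% of all genes). There were 8 positive and 6 negative log2 fold changes, with a median of 0.05. Cluh, which binds messenger RNAs of mitochondrial proteins, was at 379, 290 and 430 CPM in WT and 485, 494 and 645 CPM in KO, log2 0.56 (SE 0.21, adjusted p = 0.390 from edgeR). Its KO libraries all lay above its WT libraries, which held for 10.1% of all genes. Dnaja3, a helper of mortalin, also separated, with 225, 228 and 265 CPM in WT and 270, 268 and 291 CPM in KO, but the step was small (log2 0.21, SE 0.17, edgeR adjusted p = 0.599). Grpel1, the nucleotide exchange factor of mortalin, stood at 0.20 (SE 0.17), and its stress-linked relative Grpel2 at -0.36 (SE 0.17), values picked out after they were seen. Grpel2 separated downward, with 26.3 to 28.9 CPM in WT and 17.8 to 24.6 CPM in KO, as 9.39% of all genes did.

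Of 16 other mitochondrial proteases and peptidases, all were tested and 0 passed (2 at an unadjusted p below 0.05, against 11.8% of all genes), with 6 positive, 10 negative and a median of -0.05. Pmpcb, the catalytic subunit of the matrix processing peptidase, stood at 0.00 (SE 0.16) and Spg7, the partner of AFG3L2, at 0.11 (SE 0.16). Parl, the rhomboid protease that cuts PGAM5 itself, was at 49.7, 56.0 and 48.9 CPM in WT and 54.9, 48.2 and 44.3 CPM in KO, log2 -0.07 (SE 0.16). Oma1, which also cuts OPA1 under stress, was at -0.09 (SE 0.20). In 3 genes the KO libraries all lay below the WT libraries (9.39% of all genes), the inner membrane peptidase subunits Immp1l (-0.45, SE 0.21) and Immp2l (-0.46, SE 0.19) and the metalloprotease gene Atp23 (-0.38, SE 0.24). In Afg3l1 (0.35, SE 0.16) they all lay above (10.1% of all genes). The edgeR adjusted p of these genes was 0.408 or higher. Parl, Oma1, Immp1l, Immp2l, Atp23 and Afg3l1 were chosen after their values were seen.

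Stress signals and serine and folate enzymes raised with mitochondrial stress gave no count past the threshold either: 10 of 12 were tested and 0 passed. An unadjusted p below 0.05 was reached by 1, against 11.8% of all genes. There were 5 positive and 5 negative log2 fold changes, with a median of 0.01. Asns, asparagine synthetase, stood at 0.14 (SE 0.19) and Pck2, the mitochondrial form of phosphoenolpyruvate carboxykinase, at -0.45 (SE 0.19, adjusted p = 0.419 from edgeR). The secreted signals Fgf21 and Gdf15 had 6 and 20 counts in all over the 6 libraries and were not tested.

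Set against the bulk of the organelle, the 10 genes took overlapping shares in the genotypes. Their summed level was 2702 ± 264 CPM (SD, n = 3) for WT and 2662 ± 180 CPM (SD, n = 3) for KO. Summed counts of the 10 per summed count of 12 nuclear genes of general mitochondrial content were 0.156, 0.168 and 0.176 for WT, against 0.155, 0.162 and 0.148 for KO, so the genotypes overlapped. Those content genes had a median log2 fold change of 0.04, with 7 positive, 5 negative and 0 past the threshold. Of the 12, 0 reached an unadjusted p below 0.05, against 11.8% of all genes. Atp5a1, an ATP synthase subunit, stood at 0.20 (SE 0.21). Ucp1, the uncoupling protein, was at 2400, 1640 and 2850 CPM in WT and 4610, 3770 and 5970 CPM in KO, log2 1.06 (SE 0.28, adjusted p = 0.310 from edgeR). The chaperones and proteases did not separate by genotype as Ucp1 did; the difference between them was not tested.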

How the data were processed

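The deposited values are unnormalized read counts for each gene in 6 columns, matched to samples by title. The tools named, per the submitters' processing notes, are featureCounts 1.6.2, HISAT2 2.1.0 and DESeq2, with the build mm10. The annotation release is not given in the sources used here, nor is the strand setting. Libraries came from poly(A)-selected RNA, per the labels' protocols. After filterByExpr with a minimum count of 10 and a minimum total of 15, the 15123 genes left, holding 99.9% of the counts, were tested with TMM factors and the edgeR 4.0.16 quasi-likelihood test (limma 3.58.1, R 4.3.3), genotype as the only term, with Benjamini-Hochberg adjustment. CPM are TMM-scaled. SEs are the log2 fold change over the root of the F statistic, and 95% intervals take the t quantile of each gene's total degrees of freedom, so they are approximate. The test was checked on simulated data. A count of 0 allows up to 3 counts, or 0.0892 to 0.166 CPM by total counts without TMM scaling, covering counting error only. Named genes are all members, Pgam5, the members of each list past the threshold or else its 2 of highest level, and the 5 genes most like Hspd1; others are marked as chosen later, and a gene that this rule names is not reported here. Members and lists were chosen with earlier results of these data known. Alternatives were DESeq2 1.42.0, its size factors, limma-voom, other filters, a replicate block, mitochondrial genome genes left out, and libraries left out. Positions and lengths came from GENCODE M 21 and promoters from RefSeq GRCm38.p6. p-values measure the spread between these libraries only. Of the 53715 identifiers 53620 had a symbol. Python 3.11.15, pandas 2.3.3 and matplotlib 3.10.9 made the tables and figures.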

Additional observations from a re-analysis of the deposited data

How the results depend on the processing

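In each of the 14 alternatives 0 of the 10 members passed, and of 140 recomputed log2 fold changes 130 kept their sign and 10 turned. Genes called over all genes, 9 in the main fit, numbered 168 with DESeq2 (0.603% of 27861 tested), 27 without both WT 2 and KO 3, and 0 to 17 with 1 library left out. With no filter 663 of 27874 were called. That fit had a median of 111500 degrees of freedom, against 9.614 in the main fit. Its p-values therefore hardly allow for the spread being estimated from 3 libraries per group. With the replicate number as a block 5 genes passed; same-numbered libraries correlated at -0.114, 0.102 and 0.0909 in their deviations from the group means, so the numbers were not taken as pairs. With 1 library left out the log2 fold changes ran from -0.24 to -0.032 for Hspd1, -0.50 to -0.12 for Hspe1, -0.056 to 0.21 for Hspa9, -0.064 to 0.17 for Trap1, -0.18 to 0.024 for Clpp, -0.18 to 0.063 for Clpx, -0.099 to 0.37 for Lonp1, 0.051 to 0.21 for Afg3l2, -0.31 to -0.099 for Yme1l1 and 0.071 to 0.27 for Htra2. Without both WT 2 and KO 3, Hspa9 (-0.12), Trap1 (-0.15) and Lonp1 (-0.18) were negative; the cause was not tested. The lowest adjusted p of any member in any alternative was 0.462 (Hspe1 without KO 1). The level order kept 5 of 10 places with the longest transcript as length and 7 to 10 with 1 library left out. Heat shock genes were called lower with DESeq2 (3, Cacybp, Cryab and Hsp90ab1) and with no filter (16), and Ddit3 was called lower with no filter. Ucp1 passed with DESeq2 (adjusted p = 0.00930) and with no filter. The calls with no filter, of heat shock genes, Ddit3 and Ucp1 alike, carry the limit on degrees of freedom given above. Depth limits Htra2 most among the members (1556 counts in all).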

Other observations

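The genes whose pattern over the 6 libraries lay closest to that of Hspd1, by the root mean square difference of centred log2 CPM among 13220 other genes with a mean of at least 1 CPM, were Nutf2 (0.0427), Pdia4 (0.0543), Ripk1 (0.0560), Id3 (0.0602) and Crebzf (0.0614). Pdia4 encodes a disulfide isomerase of the endoplasmic reticulum, and Nutf2 a nuclear transport factor. Each was highest in WT 3 and lowest in KO 3, as Hspd1 was, and 0 of the 5 passed the threshold between genotypes. Both traits follow largely from choosing the genes by likeness to Hspd1. Hspe1, its head-to-head neighbour, ranked 1776 in that order (0.196), and Yme1l1 ranked 232 (0.120), the nearest of the members. Among the 45 pairs of members, the closest was Hspa9 with Trap1 (0.0557), followed by Hspa9 with Afg3l2 (0.0886). The measure favours genes that vary little, and these values are a description of 6 libraries.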
